A study of Homo sapiens with 4 samples.

Results

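The genes of sterol and fatty acid synthesis were followed through the 4 libraries of the study. They are 32 genes taken by symbol from a list of the pathway. It was written from general knowledge but with earlier results of these data known, so it was not chosen blind. All 32 were found among the 59533 genes analysed. The list holds 7 enzymes of the mevalonate arm, 11 of the sterol arm, 5 regulators, the sterol carrier STARD4, and 8 genes of fatty acid synthesis and desaturation. RNA sequencing was done on HCC1937, a human breast cancer line, and on THP-1, a human myeloid leukaemia line, with 1 library per group. Both lines are labelled p53-/- and infected to carry p53-R282W, which is a mutant of the tumour suppressor p53 and is present in the controls as well. Each line has an untreated library and a library made after decitabine (DAC), an analogue of deoxycytidine that blocks DNA methyltransferases. The dose was 0.3 µM for 5 days in HCC1937 and 5 µM for 2 days in THP-1, so line, dose and time cannot be told apart. The question asked here is how DAC treatment goes with the expression of this pathway in each line.

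Cholesterol and fatty acids are both built from acetyl-CoA. The mevalonate arm turns it into isoprenoid units, the sterol arm joins these into squalene and folds squalene into cholesterol, and a separate route extends acetyl-CoA into long fatty acids that desaturases then modify. When membrane sterol is low, the escort protein SCAP carries the SREBP precursors (from SREBF1 and SREBF2) from the endoplasmic reticulum to the Golgi, where they are cut to give active transcription factors. INSIG proteins hold this complex back when sterol is high. SREBP2 is known to act mainly on sterol genes and SREBP1c on fatty acid genes, commonly together with the factors NF-Y and SP1.

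Levels are given in FPKM, fragment counts scaled to exon length and to library depth, and the spacing of the values puts that depth at 18.71 to 19.65 M (mega) counted reads per library. Genes below 1 FPKM in both libraries of a line were dropped from that line's counts. A gene counts as called when log2(FPKM + 1) differs by 1 or more between the libraries, a 2-fold change on that scale. With 1 library per group no spread between replicates can be given. Intervals beside a ratio are exact (Clopper-Pearson) 95% counting intervals from estimated reads and cover counting error only. All 12 epithelial markers reached 1 FPKM in both HCC1937 libraries and all 12 myeloid markers did in both THP-1 libraries. Of the myeloid markers, 1 reached it in untreated HCC1937 and 4 with DAC, at a summed level of 9.81 and 15.1 FPKM, and 5 and 3 of the 12 were at 0. TYROBP stood at 0 and 3.24 FPKM, CSF1R at 0.22 and 1.54, ITGAM at 0.68 and 1.71 and CD14 at 8.69 and 7.06, while LYZ was at 0 in both. The part of these transcripts in the HCC1937 differences was not tested. Of the epithelial markers, 3 and 4 reached it in THP-1, at a summed level of 11.2 and 15.6 FPKM.

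In HCC1937 most sterol genes were lower in the DAC library, while a pair of fatty acid desaturases was higher. Of the 32 genes, 3 were at least 2-fold lower (MSMO1, HMGCS1 and ACSS2), against 1.44% of the 14058 kept genes. In the other direction 1 (FADS2) was at least 2-fold higher, against 10.3% of kept genes. A difference of at least 1.5-fold lower was seen in 10 of 32, against 5.91% of kept genes, and one of at least 1.5-fold higher in 2 (FADS1 and FADS2), against 21.9%. By any amount, 27 of 32 were lower, against 33.5% of kept genes. The median log2 difference of the 18 mevalonate and sterol arm enzymes was -0.54, and that of all kept genes was 0.19. The 2-fold count depends on scaling. It was 6 lower under median-of-ratios scaling, where 2.08% of kept genes were called lower, and 9 under upper-quartile scaling, where 3.41% were. The count at 1.5-fold lower was 13 and 22 under these, against 8.85% and 13.6%. The higher count was 1 under both, against 8.81% and 7.56%. Counting intervals wholly beyond 2-fold, a rule added after seeing the data, were found for 3 genes lower and 1 higher, against 0.887% and 10.2%.

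**Figure D1:**
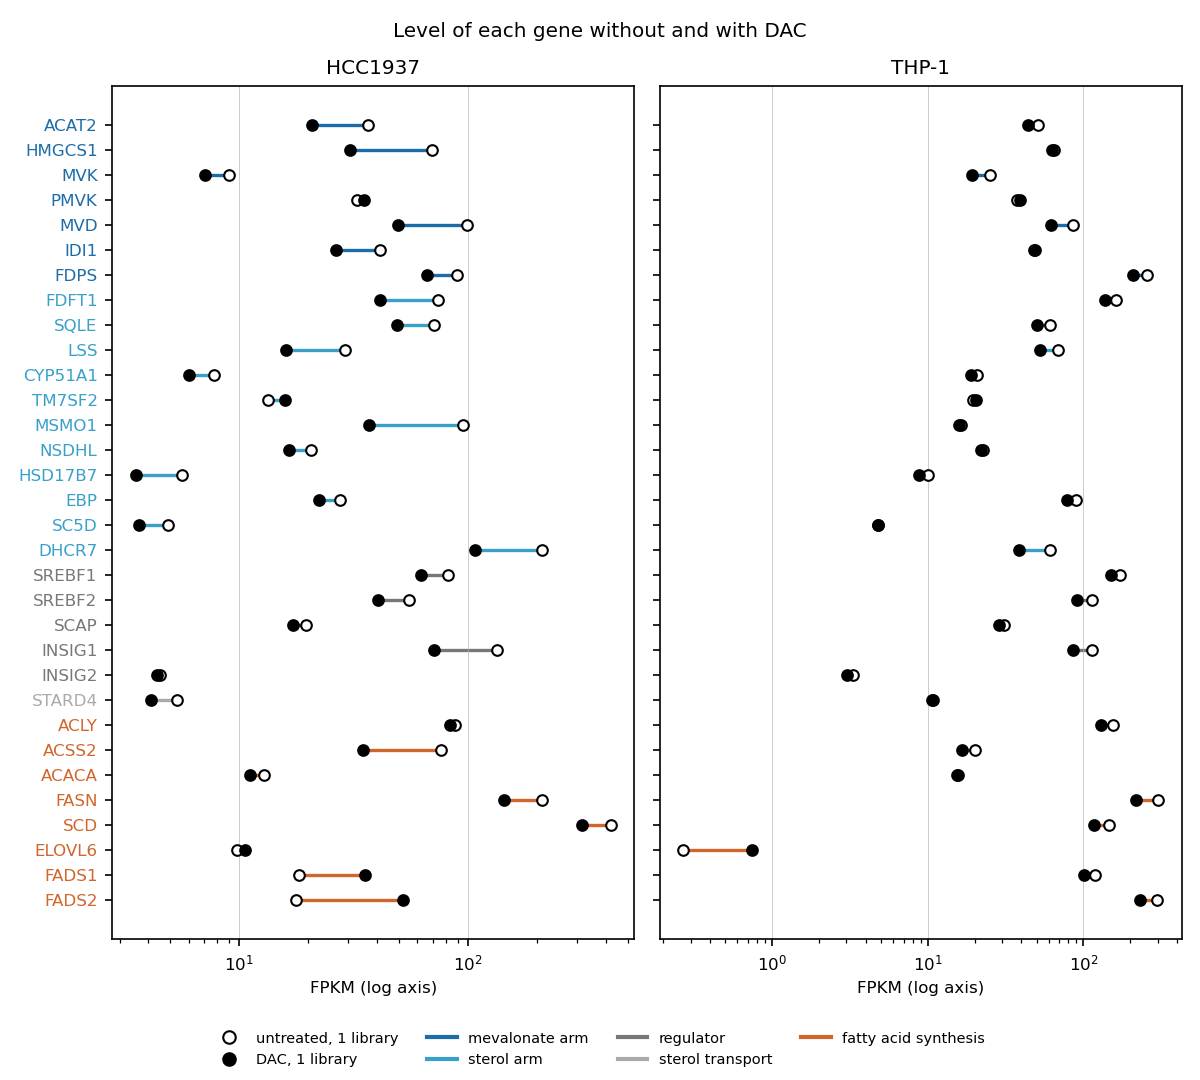
Level of each of the 32 genes in FPKM (log axis) in the untreated (open circle) and DAC (filled circle) library of HCC1937 (left) and THP-1 (right), 1 library each, with the line coloured by role. In HCC1937 MSMO1 lies at 95.3 and 36.9 FPKM and FADS2 at 17.8 and 51.7 FPKM, whereas in THP-1 most pairs of circles nearly touch.

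The mevalonate arm was lower by any amount in 6 of its 7 genes in HCC1937, against 33.5% of kept genes. HMGCS1 (ENSG00000112972.14, chromosome 5, 43289395 to 43313512 on hg38), which makes HMG-CoA from acetoacetyl-CoA, had 69.7 FPKM in the untreated library and 30.3 in the DAC library, 2.30-fold lower with a counting interval of 2.20 to 2.41. MVD (ENSG00000167508.11, chromosome 16, 88651935 to 88663161), which decarboxylates mevalonate diphosphate, stood at 99.4 and 49.5 FPKM and was 2.01-fold lower (1.94 to 2.08). On log2(FPKM + 1) the MVD difference is -0.99, which places it just outside the 2-fold rule, with ACSS2 at -1.11 just inside. These enzymes stand near the start and the end of the arm. ACAT2, the cytosolic thiolase of the first step, stood at 36.4 and 20.8 FPKM. Its exons overlap those of SOD2 on the opposite strand over 26.5% of their length, and SOD2 stood at 26.9 and 10.2 FPKM in the same libraries. The part of SOD2 reads in the ACAT2 difference was not tested. IDI1, which isomerises isopentenyl diphosphate, stood at 41.3 and 26.4 FPKM. FDPS, which makes farnesyl diphosphate, was at 89.5 and 65.9 FPKM. MVK, mevalonate kinase, was at 9.05 and 7.09 FPKM. PMVK, the kinase that follows it, went the other way at 32.6 and 34.9 FPKM, within counting error, and lay lower under both scalings. Both kinases thus had the smallest differences of the arm.

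The sterol arm was lower by any amount in 10 of its 11 genes in HCC1937, against 33.5% of kept genes. MSMO1 (ENSG00000052802.12, chromosome 4, 165327623 to 165343160), the oxidase that removes the methyl groups at carbon 4 of the sterol ring, stood at 95.3 FPKM untreated and 36.9 with DAC. It was 2.58-fold lower with an interval of 2.45 to 2.72, the largest drop of the 32 genes. DHCR7 (ENSG00000172893.15, chromosome 11, 71428193 to 71452868), the reductase of the last step to cholesterol, stood at 209.9 and 106.8 FPKM and was 1.97-fold lower (1.91 to 2.02). These were a middle and a last step of the route. FDFT1, squalene synthase and the first committed step to sterols, stood at 74.2 and 41.2 FPKM, a log2 difference of -0.83. LSS, which closes the sterol rings, stood at 28.9 and 16.1 FPKM. SQLE, which oxidises squalene and can limit the rate of the arm, was at 70.8 and 48.8 FPKM. Each of these was lower by more than counting error. HSD17B7, a ketoreductase, was at 5.63 and 3.53 FPKM, and its near copy HSD17B7P2 was at 0.04 FPKM in both. CYP51A1, which removes the methyl group at carbon 14, was at 7.73 and 6.01 FPKM. Another annotated locus, listed at 0 FPKM in both, shares 79.4% of the CYP51A1 exon length on the same strand in GENCODE 29, so that level is uncertain. SC5D and EBP, which act on the ring late in the route, had log2 differences of -0.34 and -0.29. That of NSDHL, another enzyme of the arm, was -0.30. TM7SF2, a C14 sterol reductase, was higher at 13.3 and 15.9 FPKM, and lay lower under upper-quartile scaling.

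All 5 regulators and STARD4 were lower by any amount in the HCC1937 DAC library, against 33.5% of kept genes. Their median log2 difference was -0.35. INSIG1 (ENSG00000186480.12, chromosome 7, 155297776 to 155310235), which holds SCAP back when sterol is high, had 134.0 FPKM without and 70.9 with DAC, 1.89-fold lower (1.82 to 1.96). INSIG2, its paralogue, was far lower in level, at 4.52 and 4.35 FPKM, and its interval includes no difference. So within the INSIG pair the difference lay with INSIG1. SREBF2 stood at 55.2 and 40.5 FPKM, and SREBF1 at 81.8 and 62.1 FPKM. SCAP was at 19.6 and 17.1 FPKM. STARD4, a soluble carrier of sterol, was at 5.34 and 4.11 FPKM. The table does not separate the transcripts of SREBF1 that give SREBP1a and SREBP1c.

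The promoters of these genes were read for letters known for the pathway, since the enzymes were lower together. RefSeq windows (GRCh38.p14) of the 250 bases before a start site were on hand for 28 of the 32 genes. CCAAT, the NF-Y letters, was found on either strand in 20 of 28 genes (71.4%), and in 13 of the 15 mevalonate and sterol arm genes among them (86.7%). Of all protein-coding symbols with such windows, 40.2% held it. At least 2 copies were found in 9 of the 15 (60%), against 13.7%. GGGCGG, the SP1 letters, was in 27 of 28 (96.4%), against 62.1%. TCACNCCAC, letters of the sterol regulatory element, was in 1 gene, SREBF2, against 1.19% of all, and CACGTG, an E-box, in 3 of 28 (10.7%) against 9.73%. A gene with several windows was counted when any held the letters. The windows of FADS1, FADS2, PMVK and ELOVL6, which were higher in HCC1937, held no CCAAT. Nor did those of CYP51A1, SREBF1, SCAP and INSIG2, which were lower. TM7SF2 held it and was higher. The part of these letters in the differences was not tested. A match is a description of letters and not of binding. Shown are the 3 enzyme promoters of the largest mevalonate and sterol arm differences that lie on HMGCS1, MSMO1 and MVD, with that of SREBF2, each 5′ to 3′ in the gene's direction and ending before the first annotated exon. Capitals mark CCAAT or its reverse complement ATTGG, and in SREBF2 also the TCACCCCAC match.
HMGCS1 (chr5:43313513-43313662, minus strand): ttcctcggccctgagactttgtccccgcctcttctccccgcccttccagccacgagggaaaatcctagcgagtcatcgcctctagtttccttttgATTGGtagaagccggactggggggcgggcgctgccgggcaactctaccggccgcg
MSMO1 (chr4:165327419-165327622, plus strand): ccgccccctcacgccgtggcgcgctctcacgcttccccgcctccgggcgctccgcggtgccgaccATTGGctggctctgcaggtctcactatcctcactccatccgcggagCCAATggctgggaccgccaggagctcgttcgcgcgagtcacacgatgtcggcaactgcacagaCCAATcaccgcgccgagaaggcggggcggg
MVD (chr16:88663162-88663341, minus strand): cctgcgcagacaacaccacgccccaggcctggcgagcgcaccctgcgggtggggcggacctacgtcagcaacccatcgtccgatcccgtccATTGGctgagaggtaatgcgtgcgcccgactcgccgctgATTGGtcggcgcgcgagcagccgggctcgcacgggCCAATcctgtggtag
SREBF2 (chr22:41832855-41833078, plus strand): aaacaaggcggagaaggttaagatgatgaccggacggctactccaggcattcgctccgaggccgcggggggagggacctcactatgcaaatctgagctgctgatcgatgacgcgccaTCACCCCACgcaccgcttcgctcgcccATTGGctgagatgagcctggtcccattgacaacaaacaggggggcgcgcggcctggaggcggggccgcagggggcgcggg
The printed part holds 1 CCAAT match in HMGCS1, 3 in MSMO1 and 3 in MVD. In SREBF2 the sterol regulatory letters lie upstream of a single ATTGG.

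The fatty acid genes of HCC1937 split in direction. ACSS2 (ENSG00000131069.19, chromosome 20, 34872146 to 34927962), which makes acetyl-CoA from acetate, stood at 76.4 FPKM untreated and 34.9 with DAC, 2.19-fold lower (2.10 to 2.28). ACLY, which makes acetyl-CoA from citrate, stood at 88.0 and 83.6 FPKM. Of this pair of transcripts, that of ACSS2 thus had the larger drop, and use of acetate or citrate was not measured. FASN, the synthase itself, stood at 211.0 and 143.1 FPKM, a log2 difference of -0.56. SCD, the delta-9 desaturase that makes oleate, was the most abundant of the 32 genes in both HCC1937 libraries, at 419.9 and 313.5 FPKM. ACACA, acetyl-CoA carboxylase, was at 12.9 and 11.2 FPKM. ELOVL6, an elongase, stood at 9.78 and 10.6 FPKM and lay lower under both scalings.

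FADS2 and FADS1 make polyunsaturated fatty acids, through delta-6 and delta-5 desaturation. FADS2 (ENSG00000134824.13, chromosome 11, 61792980 to 61867354) had 17.8 FPKM without and 51.7 with DAC in HCC1937, 2.91-fold higher with a counting interval of 2.80 to 3.02. FADS1 (ENSG00000149485.18, chromosome 11, 61799625 to 61829318) stood at 18.3 and 35.5 FPKM, 1.94-fold higher (1.86 to 2.02). FADS2 has 2 RefSeq windows, and distances here use the first one listed for each gene. From that FADS2 start, the FADS1 start lies 0.8 kb away on the opposite strand. Distances from the other FADS2 start were not taken. Protein-coding neighbours with a RefSeq window and a start site within 150 kb were added after these values were seen. Genes without such a window were not looked at. FEN1, a flap endonuclease of DNA replication, stood at 60.8 and 94.3 FPKM, and RAB3IL1 at 2.66 and 4.89 FPKM. TMEM258, whose start site lies close to that of FEN1, was lower, by a log2 difference of -0.64. FADS3, the third gene of the family, stood at 21.5 and 18.9 FPKM. These neighbours therefore did not all lie on the same side. FADS1 and FADS2 exons overlap on opposite strands over 4.79% and 4.44% of their lengths.

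**Figure D2:**
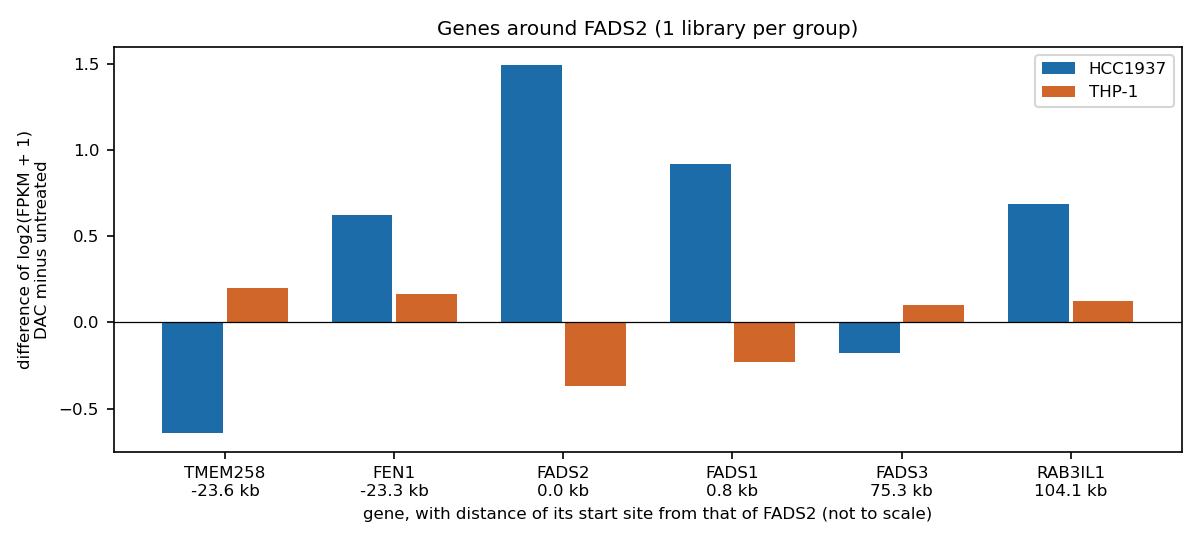
Difference of log2(FPKM + 1), DAC minus untreated, for FADS2 and the protein-coding genes around it that have a RefSeq window. HCC1937 is blue and THP-1 orange, 1 library per group, with each start site's distance from that of the first-listed FADS2 window. FADS2 reaches 1.49 in HCC1937 and -0.37 in THP-1, and TMEM258 and FADS3 lie below 0 in HCC1937.

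Set side by side, the 18 sterol synthesis enzymes of HCC1937 had a median log2 difference of -0.54 and the 8 fatty acid genes one of -0.13. Under median-of-ratios scaling these were -0.67 and -0.27, and under upper-quartile scaling -0.82 and -0.43. The sterol median was lower by 0.41, by 0.40 with median-of-ratios scaling and by 0.39 with upper-quartile scaling. Lower by any amount were 16 of 18 sterol enzymes and 5 of 8 fatty acid genes, against 33.5% of kept genes. Without FADS1 and FADS2 the fatty acid median was -0.30 and the sterol median was lower by 0.23, against 0.41 with them. The summed level of the 18 enzymes was 937 FPKM untreated and 553 with DAC, and that of the 8 fatty acid genes 854 and 684. The genes share their libraries and are not replicates, so no test is attached.

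**Figure D3:**
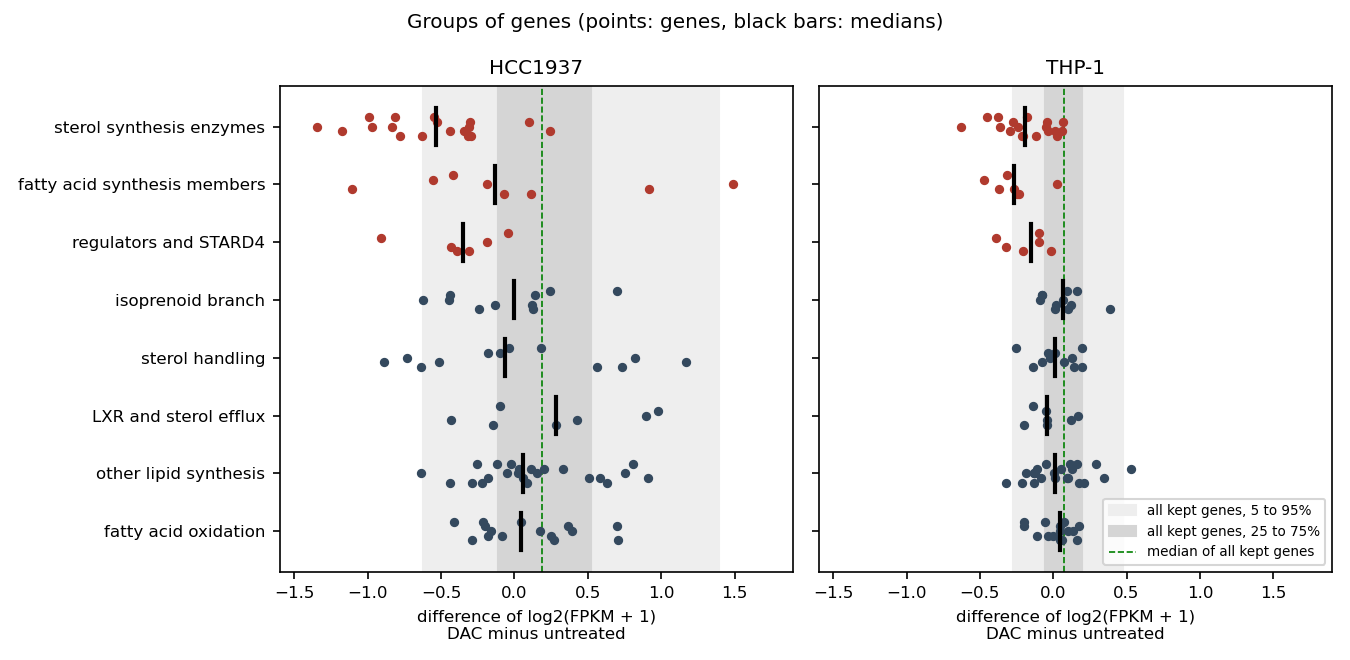
Difference of log2(FPKM + 1), DAC minus untreated, for each kept gene (point) of the 3 groups of members (red) and of 5 further lists (dark), with group medians (black bars) over the 5 to 95% and 25 to 75% ranges of all kept genes (grey bands). In HCC1937 the sterol enzymes have a median of -0.54 where all kept genes have 0.19, and in THP-1 the medians are -0.19 and 0.07.

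In THP-1 the same genes were lower by small amounts, and FADS1 and FADS2 lay on the lower side too. Of 31 kept genes, 0 were past 2-fold lower or higher, against 0.364% and 1.14% of 12075 kept genes. The counts were also 0 under median-of-ratios scaling, against 0.389% and 1.05%, and under upper-quartile scaling, against 0.373% and 1.08%. At 1.5-fold 1 gene (DHCR7) was lower and 0 higher, against 1% and 3.3% of kept genes. ELOVL6 was not kept, at 0.27 FPKM untreated and 0.74 with DAC. By any amount 26 of 31 were lower, against 34.7% of kept genes. The THP-1 intervals use GENCODE 29 lengths, which may not be those behind these values, so their widths are approximate. A counting interval wholly below no difference was met by 21 of 31, against 16.2%, and one wholly above it by 0, against 37.9%. In HCC1937 intervals wholly below and wholly above no difference were met by 26 and 4 of 32, against 21.6% and 51.1%. Intervals wholly beyond 2-fold lower or higher were met by 0 in THP-1, against 0.0249% and 0.573%. DHCR7 had the largest difference of THP-1, at 60.5 FPKM untreated and 38.8 with DAC, 1.56-fold lower (1.49 to 1.63). FASN followed at 302.3 and 217.2 FPKM, and MVD at 85.1 and 62.0 FPKM. INSIG1 stood at 112.9 and 85.7 FPKM, next in order after these.

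The pair of genes with the largest drops in HCC1937, MSMO1 and HMGCS1, was nearly level in THP-1, whereas DHCR7, MVD and INSIG1 had some of the larger drops of both lines. HMGCS1 stood at 64.7 FPKM untreated and 63.2 with DAC there, and MSMO1 at 16.4 and 15.8 FPKM, both within counting error. ACSS2 stood at 20.2 and 16.6 FPKM, 1.22-fold lower (1.14 to 1.30). IDI1, SC5D and ACACA lay within 0.03 of 0 on the log2 scale, and turned from higher to lower under both scalings. FADS2 stood at 298.7 and 231.4 FPKM and FADS1 at 118.4 and 100.8 FPKM, lower by 1.29-fold (1.28 to 1.31) and 1.17-fold (1.15 to 1.20). These were the 2 members that lay on opposite sides in the 2 lines, each by more than counting error. The regulators of THP-1 were lower by any amount in all 5, against 34.7% of kept genes. SREBF2 stood at 113.5 and 90.6 FPKM and SREBF1 at 172.5 and 149.4. The sterol enzymes had a median of -0.19 and the 7 kept fatty acid genes one of -0.27, so the order of these groups was the reverse of that in HCC1937, by 0.08.

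Across the 31 genes kept in both lines, 24 were lower in both, against 16.6% of the 9798 genes kept in both. The size of the difference was larger in HCC1937 for 28 of 31, against 74.6% of those 9798. Pearson's r between the lines' log2 differences was 0.15 over the 31 genes and 0.42 over the 29 without FADS1 and FADS2, with Spearman's rho of 0.35 and 0.47. FADS1 and FADS2 were left out after their opposite sides were seen, so the higher values without them are no measure of agreement between the lines. The points share libraries within each line, so these values are a description.

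**Figure D4:**
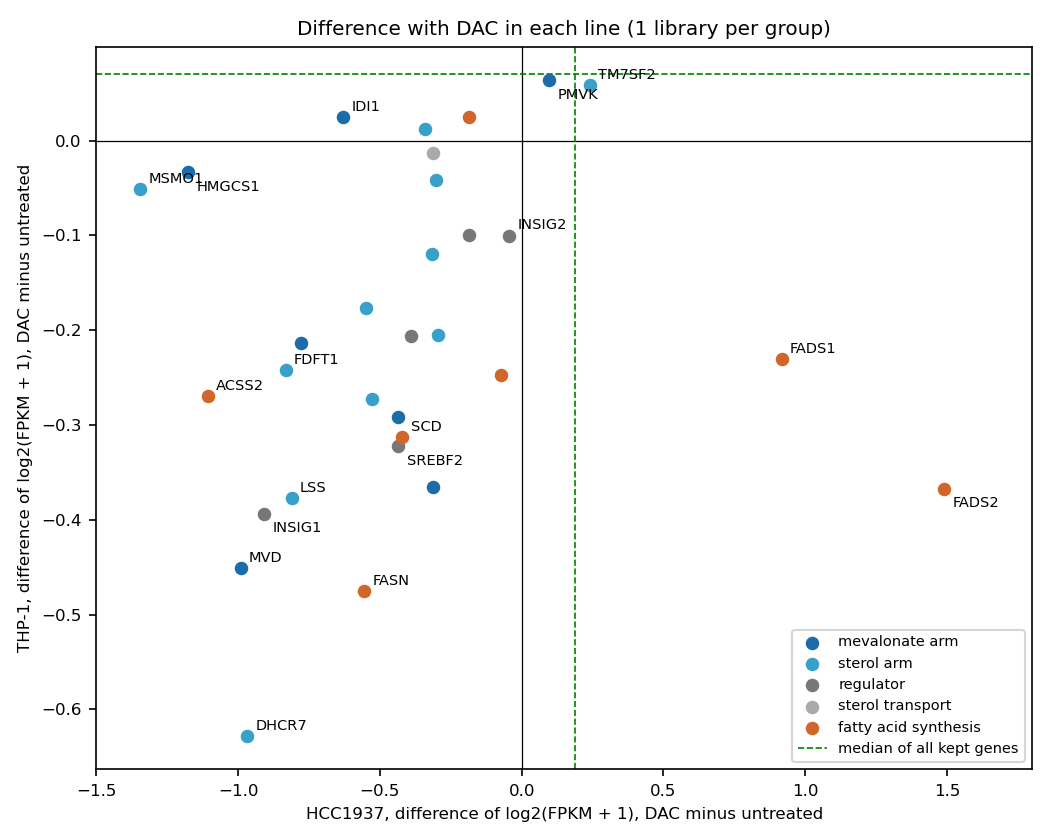
Difference of log2(FPKM + 1), DAC minus untreated, in HCC1937 (horizontal) and THP-1 (vertical) for the 31 genes kept in both lines, coloured by role, 1 library per group. Dashed lines mark the medians of all kept genes, 0.19 and 0.07, and 24 genes lie at the lower left while FADS1 and FADS2 lie at the lower right.

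A test over both lines was fitted with limma, with line as a block. It has 1 residual degree of freedom, which holds how far the lines differ. For each gene limma draws the error from this residual toward that of genes of like level, so the standard errors are moderated. Of the 31 genes 0 passed an adjusted p of 0.05 in either direction, and 0% of the 9798 genes tested did. At an unadjusted p under 0.05, 8 of 31 were lower and 0 higher, against 1.23% and 5.14% of all genes tested. The lower count was 14 of 31 under upper-quartile scaling, where 370 of the 9798 genes were lower and 381 higher. With a filter at 5 FPKM it was 12 of 29, where 120 of 5695 genes were lower and 250 higher. Without line as a block it was 0 of 31, where only 6 of the 9798 genes were lower and 21 higher. DHCR7 had the smallest p, with a mean log2 difference of -0.80 (SE 0.17, limma adjusted p = 0.64) and a lower value in both lines. FADS2 had a mean of 0.56 (SE 0.42, limma adjusted p = 0.66). No member therefore passed the test over these 4 libraries.

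Within a library the levels differed widely between members. In untreated HCC1937 SCD, FASN (211.0 FPKM), DHCR7 and INSIG1 were highest, and INSIG2 was lowest. In untreated THP-1 FASN (302.3 FPKM), FADS2 (298.7 FPKM), FDPS (254.7 FPKM) and SREBF1 (172.5 FPKM) were highest, and ELOVL6 was lowest. FADS2 was second in THP-1 and far down the order in HCC1937. The THP-1 values appear to rest on other gene lengths, which can shift this order as well as the levels. The difference in order between the lines may therefore depend on these lengths, and levels are not compared between lines.

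Further genes around the pathway were counted from lists written with earlier results of these data known. Sterol handling genes had 1 of 12 kept genes at least 2-fold higher and 0 lower in HCC1937, against 10.3% and 1.44% of all kept genes, at a median log2 difference of -0.07. Counts this near the share over all genes, here and in the lists that follow, are no result about a list. The higher one was NPC1, which exports cholesterol from lysosomes, at 9.69 FPKM untreated and 23.0 with DAC. TMEM97, a binding partner of NPC1, stood at 11.3 and 20.7 FPKM. CYP27A1, a sterol hydroxylase, was lower, at 12.8 and 6.44 FPKM. Under upper-quartile scaling 0 of this list were 2-fold higher and 2 lower, against 7.56% and 3.41%. Genes of LXR, the oxysterol receptor, and of sterol efflux numbered 7 kept. Of these, 0 were past the 2-fold rule, against the same 10.3% higher and 1.44% lower. Their median was 0.28 and became -0.01 under upper-quartile scaling. ABCA1, a cholesterol exporter, stood at 0.50 and 1.95 FPKM, past 2-fold as a ratio but just outside the rule at 0.98 on log2(FPKM + 1). RXRA, the partner receptor of LXR, stood at 12.4 and 23.9 FPKM.

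Neither the isoprenoid branch (10 kept genes), other lipid synthesis (23) nor fatty acid oxidation (15) had a gene past the 2-fold rule in HCC1937. Of all kept genes there, 10.3% were higher and 1.44% lower. The medians of these 3 lists were -0.01, 0.06 and 0.05, and all 3 lay below 0 under both scalings. The largest difference among the other lipid genes was that of MLXIPL, a glucose-responsive regulator of lipogenesis, at 2.01 and 4.67 FPKM. As a ratio it is past 2-fold, but its log2(FPKM + 1) difference of 0.91 lies outside the rule. In THP-1 0 genes of these 5 lists were past 2-fold, against 1.14% higher and 0.364% lower of all kept genes, and their medians ran from -0.05 to 0.07. SLC25A1, the mitochondrial citrate carrier that supplies ACLY, stood there at 267.7 and 213.9 FPKM, and VLDLR, a lipoprotein receptor, at 23.8 and 19.8 FPKM.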

How the data were processed

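The 32 genes and the further lists were chosen with earlier results of these data known. The 4 columns were matched to the 4 groups by their names. The authors' deposited table leaves the unit unnamed and is read here as FPKM made by the authors. The ground is that short genes (50 to 250 bp of exon, GENCODE 29 lengths) give whole reads, to a tolerance of 0.1, for 89.4% to 93.6% of genes in each library. The same spacing gives depths of 18.71, 18.73, 19.45 and 19.65 M (mega) counted reads for untreated and DAC HCC1937 and untreated and DAC THP-1. The tools named per the submitters' processing notes are STAR, HTSeq, cutadapt and FastQC, with hg38 as the build. Their versions, the annotation and whether strand was used are not given in the sources used here. THP-1 has no value in 37039 of 60612 lines. Symbols on more than 1 line (76 symbols, 1079 lines) were left out.

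Differences were taken on log2(FPKM + 1), a scale that understates low genes, with no rescaling. Reads per gene were estimated from FPKM, depth and GENCODE 29 exon lengths. All 32 members are named, and up to 3 kept genes per further list and line with the largest difference were open to naming. Some of these are not reported here. The limma 3.58.1 fit (R 4.3.3, intensity trend, Benjamini-Hochberg over all genes) used genes kept in both lines. Other scalings (median-of-ratios, upper quartile), filters, pseudocounts, sizes of change and limma settings were tried. The size rule and limma were run on simulated data with the same change in both lines, and the outcome is not reported here. A response that differs between the lines was not simulated. Other software was scipy 1.17.1, numpy 2.4.6, matplotlib 3.10.9, pandas 2.3.3 and Python 3.11.15. With 1 library per group, nothing measures the spread between cultures.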

Additional observations from a re-analysis of the deposited data

Results flagged for a closer look

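FADS2 and FADS1 were higher with DAC in HCC1937 and lower in THP-1, in each case by more than counting error. The log2 difference in HCC1937 minus that in THP-1 was 1.86 for FADS2 and 1.15 for FADS1. With 1 library per group the difference between the lines was not tested, and dose and time differed between them.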

How the results depend on the processing

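In HCC1937, 3 of the 32 genes were at least 2-fold lower, against 1.44% of kept genes. The count was 6 under median-of-ratios scaling, 9 under upper-quartile scaling and 10 at a size of 1.5-fold, against 2.08%, 3.41% and 5.91%. It was 1 with a pseudocount of 10 and 0 at 3-fold. The count of 1 higher gene, against 10.3%, became 2 at 1.5-fold, against 21.9%, and 0 at 3-fold. The THP-1 count of 0 lower genes, against 0.364%, became 1 at 1.5-fold, against 1%. Shares over all genes were not counted for the pseudocount of 10 or for 3-fold. The cause of the dependence on scaling was not tested. The medians of sterol and fatty acid genes kept their sign under the 6 alternatives run for each, and in HCC1937 the sterol minus fatty acid median ran from -0.45 to -0.34 under these. The count of members passing limma stayed at 0 under 5 alternatives, among them upper-quartile scaling, where 1 gene was called lower and 6 higher over all genes, and the smallest limma adjusted p of a member was 0.36. Median-of-ratios scaling changed the sign of 2 members in HCC1937 and 5 in THP-1, and upper-quartile scaling that of 3 in each. The rule on counting intervals wholly beyond 2-fold and the omission of FADS1 and FADS2 were added after seeing the data. The interval rule gave 3 lower and 1 higher in HCC1937, against 0.887% and 10.2% of kept genes with a length. The limma fit sets DAC against untreated within each line, and no block by replicate could be added, since each group has 1 library. Counting intervals leave out the choice of scaling and pseudocount. Under other choices of these, 113 member values moved outside their interval and 139 stayed within it. The spread between cultures is unknown.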
